A study of Mus musculus with 51 samples.

Results

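The Dlk1, Meg3 and Dio3 domain is an imprinted cluster on mouse chromosome 12. It was examined here from 109.4 to 110.4 Mb of the GRCm38 assembly, an interval that overlaps 121 of the 51229 autosomal genes annotated in GENCODE. The 6 named members are the protein-coding genes Dlk1, Rtl1 and Dio3 and the noncoding RNA genes Meg3, Rian and Mirg. Peaks and windows were taken by position alone: 70 of 144952 autosomal peaks, summed over 3 histone modifications and 2 tissues, overlapped the interval, as did 1000 of 2462755 windows of 1 kb. Dlk1, a transmembrane relative of the Notch ligands, lies at chr12:109452823-109463336. Meg3, Rian and Mirg, which give long noncoding RNAs and host small nucleolar RNAs and microRNAs, lie at chr12:109541001-109571726, chr12:109603940-109661716 and chr12:109729764-109749460. Rtl1, a retrotransposon-derived gene needed in the placenta, lies between Meg3 and Rian on the opposite strand, at chr12:109589193-109600330. Dio3, which encodes an enzyme that inactivates thyroid hormones, lies at chr12:110279068-110281097.

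In this domain the protein-coding genes are known for expression from the paternal chromosome and the noncoding genes for expression from the maternal chromosome. The control element, a germline differentially methylated region between Dlk1 and Meg3, receives its DNA methylation in sperm, unlike most imprinting control regions, which are methylated in the oocyte. H3K4me3 marks active promoters, H3K36me3 marks transcribed gene bodies, and H3K27me3 is deposited by Polycomb repressive complex 2 over silent or poised genes.

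The 3 modifications were profiled by ultra-low-input ChIP-seq in embryonic day 6.5 (E6.5) epiblast, the embryo proper, and extraembryonic ectoderm (ExE), a precursor of the placenta. B6/CAST embryos (C57BL6/Babr mother, CAST/Ei father) and CAST/B6 embryos (the reciprocal cross) were wild type. The matDKO/CAST embryos had mothers of mixed C57BL6/Babr and 129 background whose floxed Dnmt3a and Dnmt3b were deleted by Zp3-cre, which acts in growing oocytes, and CAST/Ei fathers. These embryos are labelled Dnmt3a -/+, Dnmt3b -/+ by maternal inheritance, lack DNA methylation from the oocyte, and keep the methylation that came with the sperm. Each of the 18 groups had 2 libraries, and each library came from a pool of 4 epiblasts or 8 ExE whose chromatin was divided between the antibodies, so that libraries of different marks can share embryos. The contrast between the crosses was used to tell parental from strain effects, and matDKO/CAST to ask which parental biases need DNA methylation from the oocyte.

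The ChIP libraries held about 2090000 to 22910000 reads in the windows, as the steps between low RPKM values show, and 270000 to 6820000 reads in peaks assigned to a parent. The autosomal maternal share of assigned reads was 48.8 to 52.6% in wild-type libraries and 51.1 to 55.8% in matDKO/CAST, where the authors added reads of the 129 strain to the maternal allele. The part of that step in the difference was not tested. Summed H3K4me3 at the start sites of 8 epiblast markers was 163.4 to 238.6 RPKM (reads scaled to window length and library size) over the 6 epiblast libraries and 75.9 to 115.2 in ExE. The 8 ExE markers summed to 98.0 to 158.2 RPKM in ExE and 76.3 to 112.2 in epiblast, and 3 of them, Cdx2, Tfap2c and Bmp4, were higher in ExE and none lower. Eomes, an ExE marker with 36.6 RPKM on average in ExE and 41.0 in epiblast, did not pass, and Elf5 and Esrrb lay at 1.08 RPKM or less in both tissues. The 8 visceral endoderm markers summed to 55.0 to 88.4 RPKM in ExE and 42.3 to 68.6 in epiblast, with 4 higher and 1 lower in ExE. The 6 markers of decidua and blood summed to 6.23 to 11.0 RPKM in ExE and 11.3 to 18.9 in epiblast. Carryover of visceral endoderm was not tested as a part of the tissue differences given here.

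Some sequences are shown because the parental marks sit on or beside them. The strongest maternal H3K4me3 of the domain lay at the Meg3 start and over a second peak upstream of it, while the Dlk1 and Dio3 starts carried H3K4me3 on both alleles. The first 3 sequences are promoter DNA of Dlk1, Meg3 and Dio3, taken from RefSeq (GRCm38.p6), of 250, 300 and 88 bases: those of Dlk1 and Dio3 end at the base before the GENCODE start, and that of Meg3 runs past it. The fourth is the 300 bases of the upstream epiblast peak that hold the most matches to TGCCGC, a hexamer that the imprinting protein ZFP57 recognises when methylated. All are on the plus strand, and capitals mark TGCCGC on either strand (GCGGCA on the printed one).

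Dlk1, chr12:109452573-109452822: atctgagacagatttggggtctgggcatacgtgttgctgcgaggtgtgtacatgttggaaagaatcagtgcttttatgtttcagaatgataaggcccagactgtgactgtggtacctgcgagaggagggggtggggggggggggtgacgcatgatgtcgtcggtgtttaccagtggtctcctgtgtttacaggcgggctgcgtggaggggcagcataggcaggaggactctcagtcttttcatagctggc

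Meg3, chr12:109540746-109541045: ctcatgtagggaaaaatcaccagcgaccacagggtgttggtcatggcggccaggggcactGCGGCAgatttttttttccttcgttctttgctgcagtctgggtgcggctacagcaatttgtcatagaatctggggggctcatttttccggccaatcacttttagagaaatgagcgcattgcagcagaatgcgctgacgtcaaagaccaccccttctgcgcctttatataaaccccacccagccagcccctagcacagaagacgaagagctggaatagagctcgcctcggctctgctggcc

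Dio3, chr12:110278980-110279067: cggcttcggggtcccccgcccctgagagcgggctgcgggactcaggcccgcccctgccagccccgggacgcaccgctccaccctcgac

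Stretch of the upstream peak, chr12:109528221-109528520: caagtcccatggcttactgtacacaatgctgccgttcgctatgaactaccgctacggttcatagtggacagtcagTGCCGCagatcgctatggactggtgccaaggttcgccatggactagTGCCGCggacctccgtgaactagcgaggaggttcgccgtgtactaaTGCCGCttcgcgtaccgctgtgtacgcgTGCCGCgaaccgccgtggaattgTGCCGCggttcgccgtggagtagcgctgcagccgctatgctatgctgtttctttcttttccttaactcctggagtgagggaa

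The upstream stretch held 5 matches and 29 CpG sites, the Meg3 sequence 1 match and 13 CpG sites, and the Dlk1 and Dio3 sequences no match with 8 and 10 CpG sites, in lengths that differ. The whole upstream peak of 16.5 kb held 10 matches. Of 32851 promoters of 300 bases, 11.6% held the hexamer at least once, as did 3.18% of the 3333 tiles of 300 bases across the interval, with at most 3 matches in a tile. The printed stretch was placed to hold the most matches, so its count cannot be read against those fixed windows. A match describes the letters and is not a measure of binding.

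The interval also holds 114 mature microRNAs from 61 hairpin genes with a RefSeq sequence. Of these, 112 lay inside the maternal H3K36me3 peak that covers the noncoding cluster in each tissue, and the other 2, the arms of Mir1247, lie beside Dio3. The 4 printed here were the mature microRNAs inside the paternal H3K27me3 peaks of both tissues, in the RefSeq annotation at chr12:109611521-109611541, chr12:109611556-109611576, chr12:109611841-109611861 and chr12:109611877-109611901, on the plus strand within Rian. Capitals mark the seed, bases 2 to 8. The 4 seeds differ from each other and from every other seed of the interval, in which 20 of the microRNAs share a seed with 1 other.

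miR-341-5p: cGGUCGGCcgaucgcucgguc

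miR-341-3p: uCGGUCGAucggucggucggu

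miR-1188-5p: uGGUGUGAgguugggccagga

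miR-1188-3p: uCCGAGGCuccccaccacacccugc

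Parental bias was tested at each peak with edgeR's quasi-likelihood test in each wild-type cross, and a peak was called imprinted when the Benjamini-Hochberg adjusted p, taken over all informative autosomal peaks of that mark and tissue, was below 0.05 in both crosses with the same parent higher. Of the informative peaks of the interval, those with at least 20 reads on an allele in a wild-type library, 16 were imprinted by this rule. For H3K4me3 these were 2 of 9 in epiblast, both maternal (0.0295% of all informative epiblast peaks were imprinted with the maternal allele higher), and 1 of 10 in ExE, maternal (0.129%). For H3K36me3 the only informative peak of each tissue was maternal (0.0271% and 0.0376%). For H3K27me3, 1 maternal and 1 paternal peak were imprinted among 13 in epiblast (0.0448% and 0.28%), and 8 maternal and 1 paternal among 11 in ExE (0.226% and 1.12%). With the 8 wild-type allele columns in 1 fit that separates parent from strain, 20 peaks of the interval had a parent effect. Over all informative peaks, 0.197%, 0.751% and 0.153% had one in epiblast and 0.719%, 7.27% and 0.602% in ExE, for H3K4me3, H3K27me3 and H3K36me3.

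H3K4me3 upstream of and at Meg3 came almost wholly from the maternal chromosome. The upstream epiblast peak, chr12:109518000-109534500, lay mostly outside genes, with 12.2% of its bases in exons of the noncoding Gm27528. In B6/CAST it had 282 maternal and 10 paternal reads in replicate 1 and 326 and 16 in replicate 2. In CAST/B6 the counts were 210 maternal and 6 paternal, and 74 and 2. In matDKO/CAST they were 252 maternal and 5 paternal, and 64 and 0, the last with a 95% Wilson interval of 94.3 to 100% for the maternal share, which covers counting error only. Every library thus had over 95% maternal reads, also with the mother of the other strain. The log2 ratio of maternal to paternal reads was 4.50 ± 0.32 (SE) in B6/CAST (edgeR adjusted p 3.57e-05), 5.20 ± 0.38 in CAST/B6 (4.97e-09) and 5.80 ± 0.35 in matDKO/CAST (2.88e-42). Without matDKO/CAST replicate 1 the last ratio was fitted as 10.53, a value that depends on the prior count because the library left has no paternal read, and the call held.

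The peak over the Meg3 start in epiblast, chr12:109538500-109546500, had 55.1% of its bases in exons and gave log2 ratios of 5.04 ± 0.48, 6.45 ± 0.43 and 5.57 ± 0.37, given in the same order of crosses. Its maternal share was 95.1% and 100.0% in the B6/CAST libraries, the latter from 210 maternal reads and no paternal read, 99.2% and 97.9% in CAST/B6, and 98.3% and 98.0% in matDKO/CAST. In ExE both places were covered by 1 peak, chr12:109518500-109549000, with 569, 436, 394 and 345 maternal reads in the wild-type libraries against 31, 30, 17 and 23 paternal reads. The matDKO/CAST libraries had 285 and 269 maternal against 23 and 12 paternal reads there, and the 6 ExE shares lay between 92.5 and 95.9%. The ExE log2 ratios were 4.00 ± 0.15, 4.24 ± 0.17 and 3.91 ± 0.27, and the difference of matDKO/CAST from B6/CAST, -0.09 ± 0.41, was not significant (edgeR adjusted p 1).

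The starts of Dlk1 and Dio3 had H3K4me3 on both alleles. The Dlk1 peak had maternal shares of 45.5 to 53.4% in wild-type epiblast and 38.6 to 54.2% in wild-type ExE, and the Dio3 peak 44.8 to 56.9% and 34.3 to 58.2%. None of these 4 peaks was called in any cross or in the joint fit: the log2 ratios of the joint fit were -0.04 ± 0.21 and -0.33 ± 0.17 at Dlk1 and 0.05 ± 0.25 and -0.24 ± 0.24 at Dio3, in epiblast and ExE. In matDKO/CAST the Dlk1 peak had 55.2 and 62.9% maternal reads in epiblast and 52.9 and 57.6% in ExE, and the Dio3 peak 46.4 and 51.0% in epiblast and 61.4 and 69.6% in ExE. The shares of Dlk1 in epiblast and of Dio3 in ExE thus lay above the wild-type ranges, and neither difference from B6/CAST was significant, with 0.58 ± 0.39 and 0.84 ± 0.52 on the log2 scale (edgeR adjusted p 1 for both). Between Dlk1 and the upstream peak, the small ExE peak chr12:109499500-109502000 had 70.6 to 84.2% maternal reads and a joint parent effect of 1.42 ± 0.34 (edgeR adjusted p 0.0227), but passed in B6/CAST alone (adjusted p 0.0154, against 0.139 in CAST/B6), so it was not called imprinted. Leaving out any of the 4 libraries ended the joint call, with ratios of 1.30 to 1.83.

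**Figure D1:**
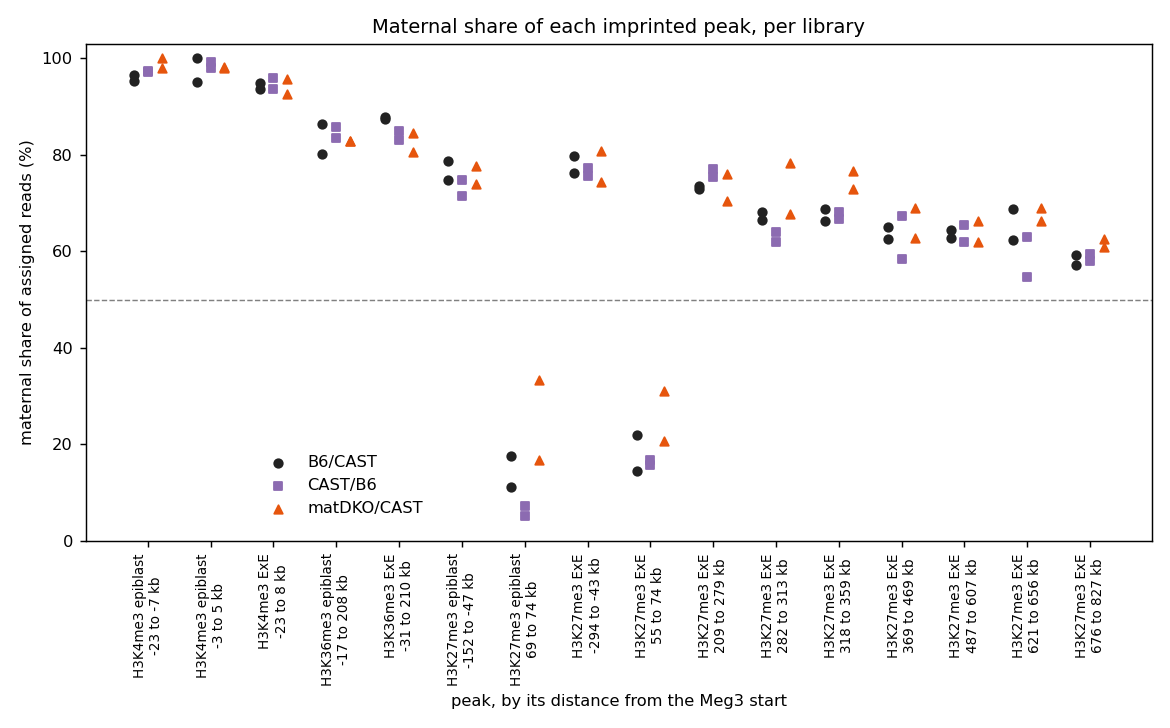
Maternal share of assigned reads (%, vertical axis) at the 16 imprinted peaks of the domain, 1 point per library, with circles for B6/CAST, squares for CAST/B6 and triangles for matDKO/CAST. Peaks are named by mark, tissue and distance from the Meg3 start in kb, and the dashed line marks equal alleles. The H3K4me3 peaks sit at 92.5% or more, the H3K36me3 peaks between 80.2 and 87.9%, the maternal H3K27me3 peaks between 54.6 and 80.9%, and the paternal H3K27me3 peaks at 33.3% or less.

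H3K36me3 covered the noncoding cluster as 1 peak in each tissue, and most of it was maternal. The epiblast peak, chr12:109524500-109749000, ran from before Meg3 to the end of Mirg and held the starts of 102 annotated genes, among them 66 microRNA and 23 small nucleolar RNA genes. Maternal and paternal reads were 542 and 86, then 1093 and 270, in B6/CAST, and 1101 and 216, then 1095 and 182, in CAST/B6. In matDKO/CAST they were 193 and 40, then 640 and 132. The maternal share was 80.2 to 86.3% in the wild type and 82.8 to 82.9% in matDKO/CAST, so the crosses overlapped. The log2 ratios were 2.20 ± 0.12, 2.53 ± 0.07 and 2.12 ± 0.12 in the same order of crosses.

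The ExE peak, chr12:109510500-109751000, had 1990 maternal and 286 paternal reads, then 1563 and 216, in B6/CAST. CAST/B6 had 1500 and 305, then 1183 and 208, and matDKO/CAST 442 and 106, then 852 and 156. Its maternal share was 87.4 and 87.9% in B6/CAST, 83.1 and 85% in CAST/B6, and 80.7 and 84.5% in matDKO/CAST, which lay below B6/CAST and overlapped CAST/B6. The log2 ratios were 2.75 ± 0.07, 2.45 ± 0.07 and 2.11 ± 0.12, still strongly maternal in each cross. The matDKO/CAST ratio was lower than that of B6/CAST by a log2 difference of -0.63 ± 0.15 (edgeR adjusted p 0.0443), and against CAST/B6 the difference was -0.34 ± 0.15 and not significant (adjusted p 0.263). It was the 1 peak of the interval at which matDKO/CAST differed from B6/CAST, and leaving out either B6/CAST library or matDKO/CAST replicate 2 ended the call, with log2 differences of -0.66, -0.59 and -0.40. Over all informative peaks, 0.679%, 0.179% and 0.163% differed in epiblast and 0.87%, 0.742% and 0.351% in ExE, for H3K4me3, H3K27me3 and H3K36me3. These peaks also run over Rtl1, and reads of ChIP carry no strand, so signal from Rtl1 and from the RNAs opposite to it cannot be told apart. Dlk1 had a small H3K36me3 peak in ExE with 12 to 36 assigned reads per wild-type library, below the minimum for a test, and a maternal share of 41.7 to 47.2%. No H3K36me3 peak overlapped Dio3.

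H3K27me3 was paternal within the noncoding cluster, where H3K36me3, and H3K4me3 at the Meg3 end, were maternal. It was maternal over Dlk1 in both tissues and, in ExE, from Mirg toward Dio3. At Dlk1 the epiblast peak, chr12:109389500-109494000, had 840 maternal and 226 paternal reads, then 668 and 225, in B6/CAST, and 1256 and 425, then 701 and 280, in CAST/B6. In matDKO/CAST it had 1035 and 298, then 214 and 75. All 6 libraries were maternal, between 71.5 and 78.8%. The log2 ratios were 1.62 ± 0.22, 1.46 ± 0.10 and 1.40 ± 0.18, and leaving out matDKO/CAST replicate 1 ended the call in that cross, with a log2 ratio of 1.16. In ExE the peak over Dlk1 was longer, chr12:109247500-109498000, with 250.5 kb against 104.5 kb in epiblast, and its maternal share was 75.6 to 79.7% in the wild type and 74.3 to 80.9% in matDKO/CAST. Its log2 ratios were 1.76 ± 0.08, 1.72 ± 0.07 and 1.54 ± 0.13. These shares are of whole peaks of 104.5 and 250.5 kb, so the parental share of H3K27me3 at the Dlk1 start itself was not measured. The H3K4me3 peak over that start had reads of both alleles.

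Inside the noncoding cluster H3K27me3 was sparse and paternal. The mean over the cluster was 0.28 to 0.41 RPKM in wild-type epiblast and 0.35 to 0.40 in wild-type ExE, below the 0.49 to 0.55 RPKM of the input libraries there. Inputs were made without an antibody, and a ChIP library can lie below them away from its peaks. There was 1 imprinted peak in each tissue, paternal, over the starts of Rtl1 and Rian in ExE, chr12:109596000-109615500, and within Rian in epiblast, chr12:109610500-109615500. The ExE peak had 13, 12, 17 and 11 maternal against 77, 43, 91 and 55 paternal reads in the wild type, and 13 and 14 against 50 and 31 in matDKO/CAST. The ExE maternal share was 14.4 to 21.8% in the wild type and 20.6 to 31.1% in matDKO/CAST, with log2 ratios of -2.33 ± 0.28, -2.35 ± 0.26 and -1.85 ± 0.33. The matDKO/CAST call was lost without matDKO/CAST replicate 2, at -1.33, and with the DESeq2 Wald test, at -1.84, which also ended the joint call. The epiblast peak rested on few reads, 2 or 3 maternal against 14 to 38 paternal in each wild-type library, with a maternal share of 5.0 to 17.6%. Its log2 ratios were -2.63 ± 0.61 in B6/CAST (edgeR adjusted p 0.0245), -3.92 ± 0.53 in CAST/B6 and -2.24 ± 0.57 in matDKO/CAST (0.0185). The call in B6/CAST was lost without B6/CAST replicate 1, and that in matDKO/CAST without either of its libraries. H3K4me3 peaks at the same place had too few reads for a test. In epiblast, chr12:109612000-109614500 had 4, 2, 1 and 1 maternal against 8, 8, 6 and 1 paternal reads in the wild type, and 0 and 0 against 13 and 2 in matDKO/CAST. In ExE, chr12:109611500-109615000 had 9, 6, 4 and 5 against 4, 4, 7 and 4, and 8 and 1 against 0 and 2. A further epiblast peak in Rian, chr12:109607500-109609000, had 19 reads over all libraries. At the Meg3 start, the epiblast H3K27me3 peak chr12:109536500-109542500 also leaned to the paternal side, with 10.0 to 40.0% maternal reads, but passed in CAST/B6 alone (log2 ratio -2.26 ± 0.54, adjusted p 6.51e-04), not in B6/CAST (-1.34 ± 0.70, 0.582).

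**Figure D2:**
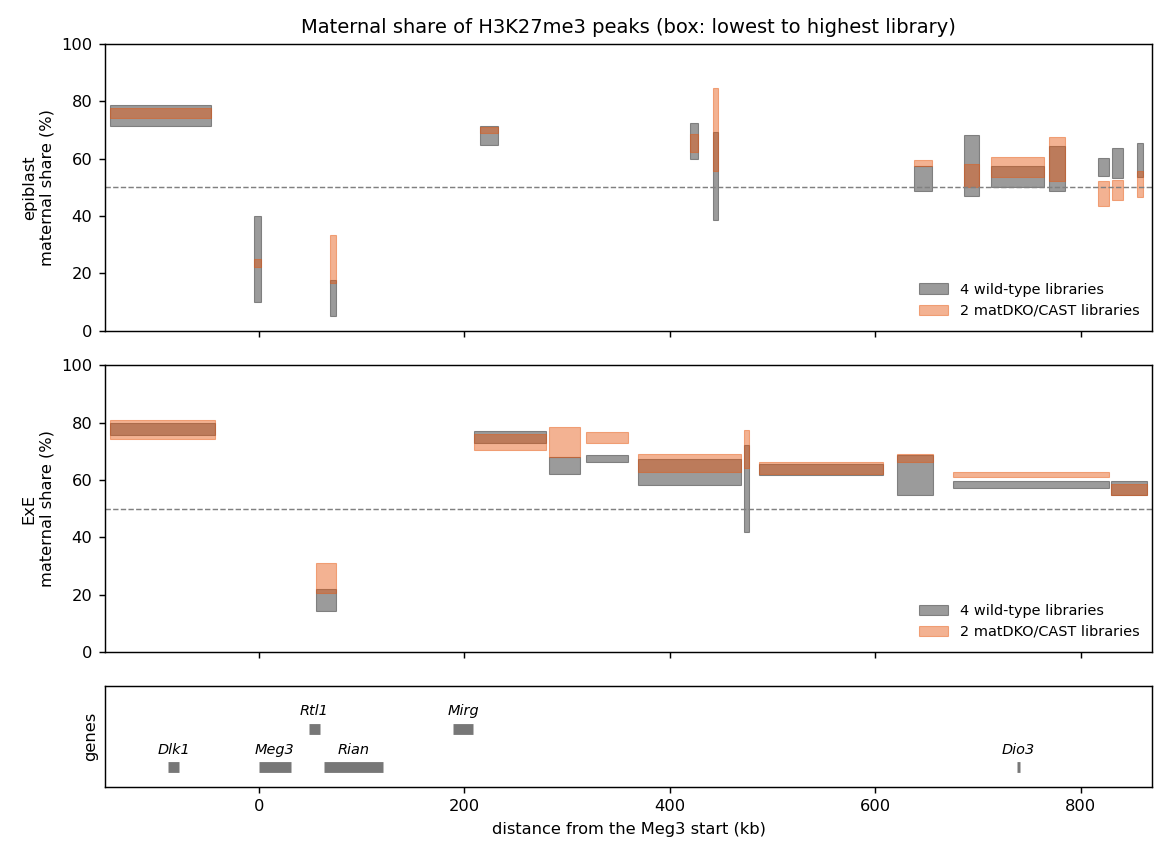
Maternal share of H3K27me3 reads (%, vertical axis) in each informative peak against distance from the Meg3 start (kb), for epiblast (top) and ExE (middle), with the genes below. Each box spans the length of a peak and runs from the lowest to the highest library, grey for the 4 wild-type and orange for the 2 matDKO/CAST libraries, and peaks that reach past the plot are drawn to its edge. In ExE the boxes fall from 73.0 to 77% beside Mirg to 57.2 to 59.5% over Dio3 in the wild type, while the peak over Rtl1 and Rian lies at 14.4 to 21.8%.

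Between Mirg and Dio3 the ExE carried a run of maternal H3K27me3 peaks, chr12:109750501-110368500. This run was found on the wild-type ExE reads themselves, as 7 imprinted peaks in the same direction, so those values are a description. Its first peak, chr12:109750500-109820500, began where the H3K36me3 peak ended and overlapped no annotated gene, and its maternal share was 73.0 to 77%. The next 2 peaks, from 109823000 to 109854000 and from 109859000 to 109900000, had 61.9 to 68.1% and 66.4 to 68.8%. The peaks from 109910000 to 110010500, 110028000 to 110148500 and 110162500 to 110197000 had 58.3 to 67.3%, 61.9 to 65.5% and 54.6 to 68.8%. The last, chr12:110217000-110368500, covers Dio3, its divergent noncoding neighbour Dio3os and the microRNA gene Mir1247, and had 57.2 to 59.5%. The share was thus highest beside the noncoding cluster and lowest over Dio3 in every wild-type library except CAST/B6 replicate 1, in which the sixth peak, with 54.6%, was lower than the last, with 59.5%. The other genes that start in these peaks are Gm9661, Gm3379, 4930511J24Rik, Gm34719, Gm47187, Gm47188, Gm34785, Gm40576, 4930425K24Rik, Gm6988, Gm9063 and Gm47195. Just outside the run, the peak from 110371000 to 110449500 had 54.8 to 59.6% and passed in CAST/B6 (log2 ratio 0.56 ± 0.08) but not in B6/CAST (0.23 ± 0.09, edgeR adjusted p 0.0788). With the library kept as a block, or with library totals, it was called imprinted too, so the end of the run depends on that choice. A short peak between the fourth and the fifth, from 110013500 to 110018000, was not called and had 41.7 to 72.2% in 153 reads over all libraries.

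The wild-type call over Dio3 was lost without either B6/CAST library, and that of the sixth peak without B6/CAST replicate 1 or CAST/B6 replicate 2. Among the 8 runs of 5 or more imprinted H3K27me3 peaks found in ExE by the same rule, this was the 1 with the maternal allele higher, and the other 7 were paternal. In the matDKO/CAST libraries, which had no part in finding the run, 6 of its 7 peaks kept a significant maternal bias. Over all imprinted H3K27me3 peaks of ExE, those of the run included, 34 of 251 (13.5%) kept their bias. The other ExE runs kept 0 to 9 of their 5 to 45 peaks. The matDKO/CAST log2 ratios of the 7 peaks, from Mirg to Dio3, were 1.19 ± 0.17, 1.20 ± 0.20, 1.30 ± 0.18, 0.70 ± 0.14, 0.58 ± 0.14, 0.79 ± 0.18 and 0.42 ± 0.13. The last, over Dio3, missed the threshold (edgeR adjusted p 0.08), with a difference from B6/CAST of 0.02 ± 0.15 (0.995). It passed with the library kept as a block, with library totals and with all 3 crosses in 1 fit, at log2 ratios of 0.42, 0.43 and 0.42. In that last fit, the ratio without matDKO/CAST replicate 3 was 0.39. Without matDKO/CAST replicate 2, 2 of the 7 kept the call, with all ratios still maternal.

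In epiblast, 9 peaks covered 145.5 kb of the run, against 8 peaks and 553.5 kb in ExE, and their pooled maternal share was 53.5 to 58.7% in the wild type, beside 61.3 to 63.8% in ExE. The run was chosen on the ExE reads and the peaks of the tissues differ, so these shares are given side by side and not compared. No epiblast peak of the run was called imprinted in both crosses. A pair of peaks passed the joint test, chr12:109756000-109774000, which lies in the first ExE peak, with a log2 ratio of 0.99 ± 0.18 (edgeR adjusted p 0.00216), and chr12:109960500-109968500, with 1.13 ± 0.22 (0.00404). Their maternal shares were 64.7 to 71.4% and 60.0 to 72.3%. Both lost the joint call without CAST/B6 replicate 1, the first also without CAST/B6 replicate 2, with ratios of 0.88 to 1.00. Both were called imprinted when the library was kept as a block. Over Dio3 the epiblast peak, chr12:110253500-110305000, had 50 to 57.5% maternal reads and a joint log2 ratio of 0.11 ± 0.11 that was not significant (0.969). H3K4me3 peaks within the run had a pooled maternal share of 46.3 to 55.0% in wild-type epiblast and 42.5 to 48.9% in wild-type ExE, on both sides of 50% in epiblast and below it in ExE. The ExE shares before and after the interval were 64.2% in the nearest H3K27me3 peak upstream, 166.0 kb away, and 53.3% in the nearest downstream, 195.5 kb away, over all wild-type libraries.

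Most of these biases were kept in embryos without oocyte DNA methylation. In matDKO/CAST, 15 of the 16 had a significant bias toward the same parent, and the exception was the ExE H3K27me3 peak over Dio3, which passed with the library kept as a block. Over all imprinted peaks, those of the domain included, the share that kept its bias in epiblast and ExE was as follows. It was 27.3% (6 of 22) and 25.7% (19 of 74) for H3K4me3. For H3K27me3 it was 10.3% (3 of 29) and 13.5% (34 of 251), and for H3K36me3 14.3% (1 of 7) and 35.0% (7 of 20). The domain gave 2, 2 and 1 of the peaks kept in epiblast and 1, 8 and 1 in ExE, in the same order of marks. With the DESeq2 Wald test in place of edgeR, 8 peaks were both imprinted and kept, the losses being 6 H3K27me3 peaks and the epiblast H3K4me3 peak at Meg3, whose wild-type call was lost. Without matDKO/CAST replicate 2 of ExE H3K27me3, 10 were. At H19 and Igf2, the other domain compared here, H19 H3K4me3 was 90.9 to 97.1% maternal in wild-type epiblast and 87.3 to 94.5% in matDKO/CAST, as at Meg3. H3K27me3 over Igf2 in ExE was 30.2 to 34.2% maternal in the wild type. In matDKO/CAST it was 55.5 and 54.4%, near the autosomal shares of these libraries, 55.8 and 53.1%. That over Dlk1 was maternal in the wild type and in matDKO/CAST. Igf2 H3K4me3 in ExE was 12.1 to 27.5% maternal in the wild type and 24.7 and 19.5% in matDKO/CAST. The paper ties most imprinted H3K27me3 of ExE to the Kcnq1ot1 and Airn clusters and their maternal methylation. Whether the Igf2 peak belongs to the Kcnq1ot1 cluster was not tested.

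Without regard to the allele, the modifications split the domain into 3 parts, the start of Meg3 with the most H3K4me3, a noncoding cluster with H3K36me3, and the starts of Dlk1 and Dio3, with both H3K4me3 and H3K27me3. Levels were taken per length, as RPKM within 1 kb of the start or over the gene body. Start-site H3K4me3 of Meg3 was 19.1, 15.3, 18.2 and 21.3 RPKM in wild-type epiblast and 15.8, 15.4, 13.7 and 19.9 in wild-type ExE, the highest of the members in every library. That of Dio3 was 6.94, 6.82, 3.37 and 5.0 RPKM in epiblast and 5.38, 4.62, 2.40 and 3.23 in ExE. That of Dlk1 was 5.02, 4.68, 2.73 and 2.84 RPKM in epiblast and 4.11, 3.11, 2.25 and 3.00 in ExE. In both genes the CAST/B6 libraries, given last, were lower than the B6/CAST libraries of the same tissue. Rian, Mirg and Rtl1 stood at 0.42 RPKM or less, within or under the 0.23 to 0.77 RPKM of the inputs at their starts, so no H3K4me3 above input was seen there. Input is not the floor of a ChIP library. Between Mirg and Dio3, H3K4me3 was 0.17 to 0.30 RPKM in wild-type epiblast against 0.48 to 0.55 in the epiblast inputs. The wild-type ranges of Dlk1 and Dio3 overlapped in each tissue, and that of Meg3 overlapped neither. A further place with both H3K4me3 and H3K27me3 lay between Mirg and Dio3, at the start of the noncoding Gm34785, where the H3K4me3 peak chr12:110186000-110191500 had 38.1 to 51.5% maternal reads in wild-type epiblast and was not called. The bin of 5 kb there held 5.20 to 8.40 RPKM of H3K4me3 and 4.14 to 7.74 RPKM of H3K27me3 in wild-type epiblast, and 1.83 to 5.61 and 2.11 to 2.99 RPKM in wild-type ExE. It was named after its values were seen.

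**Figure D3:**
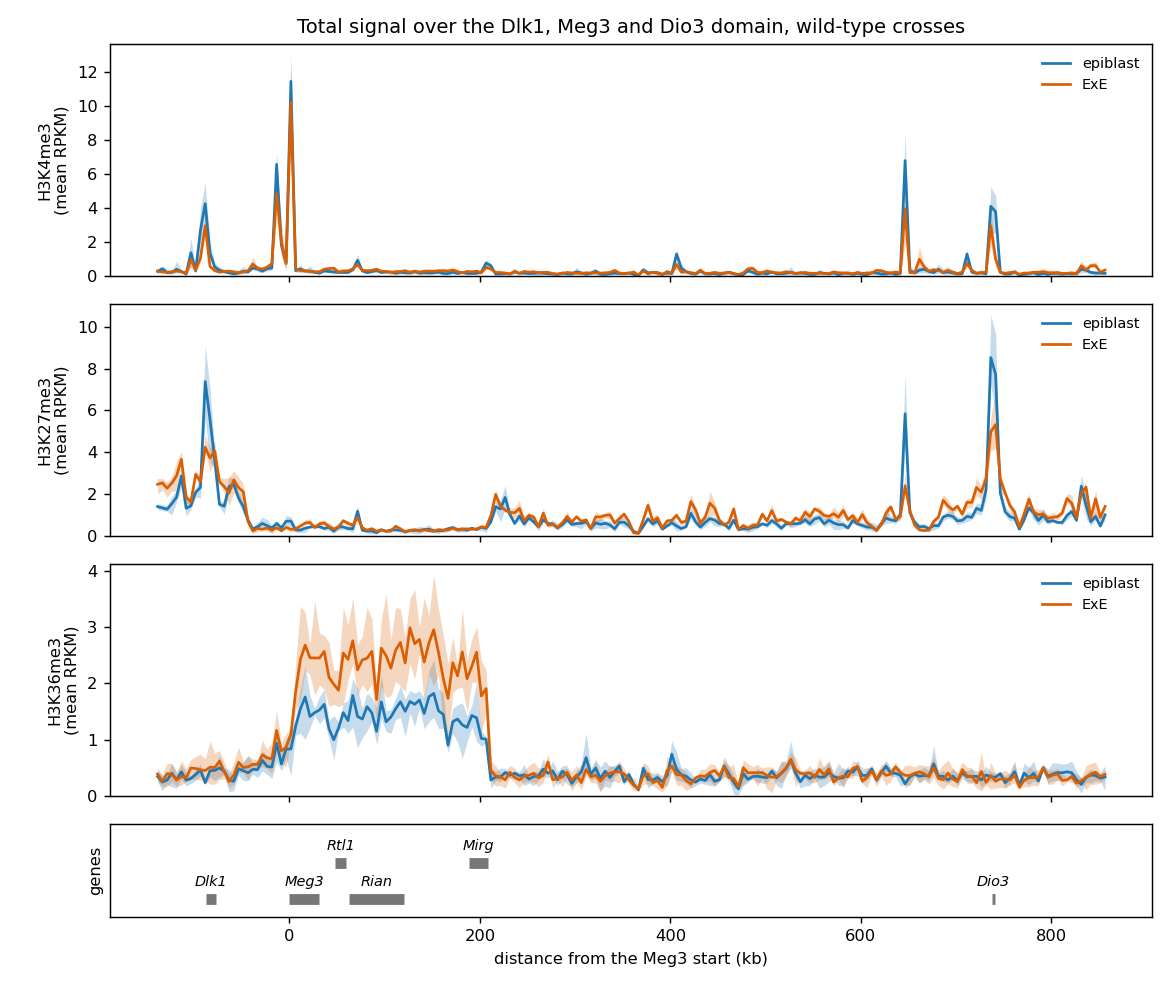
Mean RPKM of H3K4me3, H3K27me3 and H3K36me3 (vertical axes) in bins of 5 kb against distance from the Meg3 start (kb), with lines for the mean and shading from the lowest to the highest of the 4 wild-type libraries in epiblast (blue) and ExE (orange), and the genes at the bottom. H3K4me3 peaks before and at Meg3, H3K36me3 fills the cluster from Meg3 to Mirg, and H3K27me3 peaks at Dlk1, at Dio3 and 646.5 kb after Meg3, near Gm34785, where the epiblast line is the higher.

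The tissues were compared with limma on log2(RPKM + 0.5), with adjusted p-values over all autosomal genes. H3K36me3 was higher in ExE over 3 of the 6 members, Rian, Mirg and Rtl1, all in the noncoding cluster (11.2% of all genes were higher). Over Rian it was 1.55, 1.18, 1.47 and 1.63 RPKM in wild-type epiblast and 2.71, 2.98, 1.94 and 2.05 in wild-type ExE, with no overlap, and a log2 difference of 0.57 ± 0.09 (limma adjusted p 0.00847). Over Mirg it was 1.28, 1.02, 1.42 and 1.20 RPKM in epiblast and 2.37, 2.65, 1.79 and 1.71 in ExE, again apart, with 0.59 ± 0.08 (0.00495). Rtl1 differed by 0.57 ± 0.09 (0.00957) and Meg3 by 0.50 ± 0.14, short of the threshold (0.0535). Dlk1 and Dio3 stayed at or under 0.69 RPKM in both tissues. Of the 100 annotated genes inside the cluster, 34 were higher in ExE and none lower, and all 100 had a positive difference, with a median of 0.58 against 0.018 over all genes. Many of these are small RNA genes that share a window, so the count is of features, not of separate measurements. Quantile normalization in place of library scaling reduced the differences of Rian, Mirg and Rtl1 to 0.18, 0.22 and 0.18 and ended the 3 calls.

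H3K27me3 at the starts of Dlk1 and Dio3 was lower in ExE than in epiblast, although the peaks over them were longer in ExE (5.29% of all genes were lower at the start site and 4.59% higher). At Dio3 it was 8.73, 8.79, 11.3 and 10.4 RPKM in wild-type epiblast and 4.70, 4.64, 7.00 and 6.0 in wild-type ExE, with no overlap and a log2 difference of -0.77 ± 0.16 (limma adjusted p 0.0194). At Dlk1 it was 6.09, 7.04, 9.44 and 8.30 RPKM in epiblast and 3.85, 4.02, 4.61 and 3.76 in ExE, also apart, with -0.84 ± 0.17 (0.0184). At Meg3 it was low, 0.617, 0.769, 1.26 and 1.12 RPKM in epiblast and 0.435, 0.413, 0.364 and 0.226 in ExE, where the inputs had 0.23 to 0.42, with -0.73 ± 0.12 (0.00636). Rian had 0.47 ± 0.12 (0.0400), from levels near the input. With a pseudocount of 0.1 these 2 differences were -1.16 and 0.78. Over the gene body Dio3 fell by 0.72 ± 0.15 on the log2 scale (0.0251; 4.02% of all genes were lower there). Under quantile normalization the Meg3 difference alone was still called, those of Dlk1 and Dio3 at the start shrank to -0.28 and -0.07, and that of the Dio3 body turned to 0.10. The calls at Dlk1, Dio3 and Rian also needed nearly every library: leaving out any wild-type library except B6/CAST epiblast replicate 1 ended those of Dlk1 and Dio3 at the start, any except B6/CAST ExE replicate 2 ended that of Rian, and any at all ended that of the Dio3 body, with the direction kept each time. In bulk tissue, fewer cells with a mark and less mark per cell cannot be told apart.

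**Figure D4:**
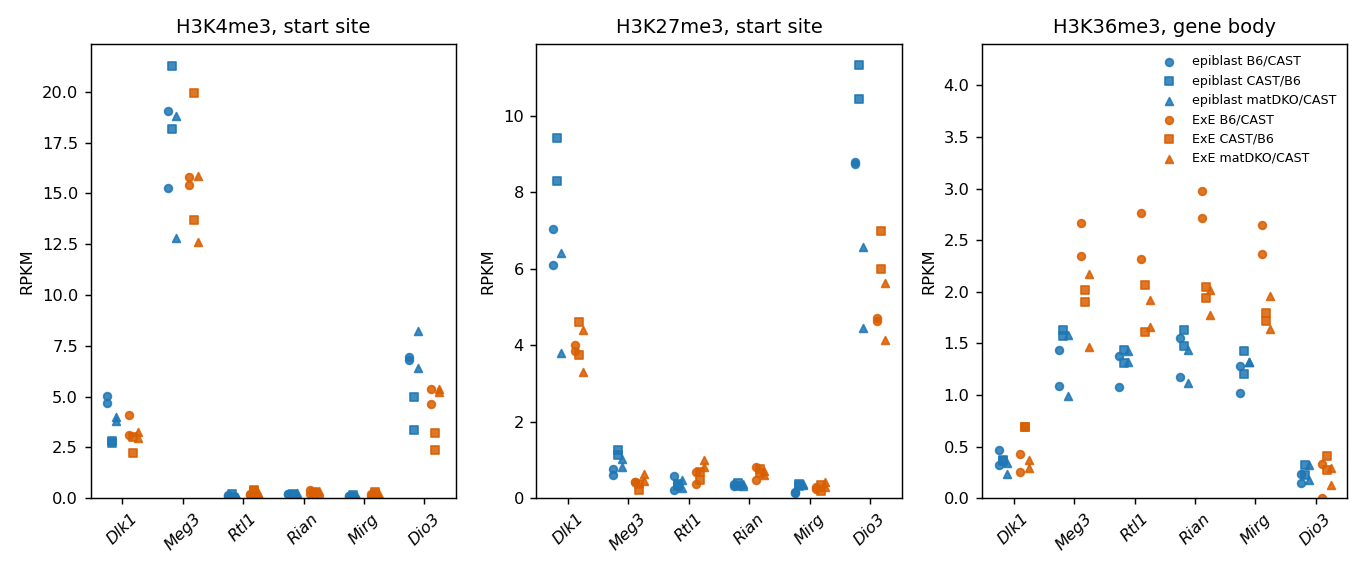
RPKM (vertical axes) of the 6 members per library, for H3K4me3 and H3K27me3 within 1 kb of the start and for H3K36me3 over the gene body, with blue for epiblast, orange for ExE, circles for B6/CAST, squares for CAST/B6 and triangles for matDKO/CAST. Meg3 leads in H3K4me3, Dlk1 and Dio3 in H3K27me3, and Meg3, Rtl1, Rian and Mirg in H3K36me3, where the wild-type ExE points lie above the wild-type epiblast points for these 4 genes.

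Start-site H3K4me3 did not pass between the tissues for any of the 6 members (limma; 5.61% of all genes passed, and 2 members, Dio3 and Rtl1, had an unadjusted p under 0.05). The differences at Dlk1, Meg3 and Dio3 were -0.24 ± 0.12, -0.18 ± 0.17 and -0.46 ± 0.15. Total signal in matDKO/CAST against B6/CAST passed in none of 24 tests of the members in either tissue (limma), and 4 in ExE and 2 in epiblast had an unadjusted p under 0.05. Over all genes, 0.0234% passed for start-site H3K4me3 in each tissue, 0.00195% and 0.00781% for start-site H3K27me3 in ExE and epiblast, 0.0% and 0.0195% for gene-body H3K27me3, and 0.00195% and 0.0137% for H3K36me3. The 4 in ExE included lower H3K36me3 over Rian, with 2.02 and 1.78 RPKM in matDKO/CAST against 2.71 and 2.98 in B6/CAST (-0.48 ± 0.13, adjusted p 0.266), over Rtl1 (-0.41 ± 0.13, 0.332) and over Mirg (-0.39 ± 0.11, 0.292). The other was H3K27me3 over the body of Rtl1, at 0.33 ± 0.13 (limma adjusted p 0.865). The 2 in epiblast were start-site H3K27me3 of Dio3, at -0.65 ± 0.23 (0.343), and of Mirg, at 0.38 ± 0.15 (0.372). CAST/B6, with 1.94 and 2.05 RPKM over Rian, lay at the matDKO/CAST level.

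Among 12 genes that flank the domain, such as Wars, Yy1 and Dync1h1, 6 had higher H3K36me3 in ExE and none lower (11.2% and 2.04% of all genes), with a median log2 difference of 0.34, beside 3 of the 6 members with a median of 0.53. Of 10 genes known to act on imprints or on Polycomb, among them Zfp57, Zfp445, Trim28, Ezh2 and Eed, none differed in start-site H3K4me3 between the tissues (limma; Trim28, at 0.42 ± 0.18, had an unadjusted p under 0.05). Trim28 and Aff3 lay at 0.78 RPKM or less in both tissues, too low at the annotated start for the comparison to say much. Over gene bodies H3K36me3 was higher in ExE at 4 of the 10, Zfp445, Ezh2, Eed and Suz12, and lower at Aff3, beside the same shares of all genes. H19 and Igf2 rose in start-site H3K4me3 from epiblast to ExE by 1.25 ± 0.17 and 1.60 ± 0.17 (limma adjusted p 0.00437 and 0.00187), where Meg3 and Dlk1 did not pass.

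Over the 36 ChIP libraries, the genes whose levels were most like those of Dio3 were its neighbour Dio3os (Pearson r 0.94), Cgas (0.92) and the homeobox genes Hmx1, Lhx6 and Barx1 (0.92, 0.92 and 0.92), with levels on the log2 scale centred within each mark. Those most like Dlk1 were the transcription factor genes Pitx1 (0.90) and Tbx2 (0.89), followed by Gm37477, Gm26592 and 1810010H24Rik. Those most like Meg3 were Elob (0.82), Rpl36, Aldh7a1, Rpl9 and Pdia3. The libraries share tissues and crosses, Dio3 and Dio3os share windows near their starts, and the values are descriptions.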

How the data were processed

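The authors trimmed reads with Trim Galore, aligned them with Bowtie2 2.3.2 to GRCm38 masked at strain variants, and assigned them to parents with SNPsplit; in matDKO/CAST, 129 reads were added to the maternal allele. They called chromstaR peaks per cross and tissue, merged them per mark, and deposited maternal and paternal read counts per peak and library, whose starts and ends lie on steps of 500 bp. The deposited table of all 51 libraries, 15 of them inputs, gives RPKM in windows of 1 kb. Counts were tested with edgeR 4.0.16 (quasi-likelihood, TMM factors, at least 20 reads on an allele in 1 wild-type library) per cross, jointly, and for the interaction of cross and parent; RPKM, as log2(RPKM + 0.5), with limma 3.58.1 over 51229 autosomal GENCODE genes, 12 libraries per mark and a mean per group. Fold changes on that scale understate those of low genes. Regions were given by pooled reads of peaks with their midpoint inside, without a test. Run peaks lie within gaps of 1 Mb, at least 5 together.

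Groups and replicate numbers came from the labels. p-values measure the spread between 2 pools per group. All 6 members are named, with every imprinted, retained or different peak, and genes starting in imprinted peaks; likeness names the 5 highest r. The members and gene lists were chosen with earlier results of these data known. Alternatives were library totals, DESeq2 1.42.0, the read minimum, all crosses in 1 fit, a threshold of 0.01, pseudocounts of 0.1 and 1, a mean of 0.2 RPKM, quantile normalization, a replicate block, omission of each library and, chosen after seeing the data, assigning peaks to regions by overlap. The edgeR tests of the wild-type crosses, the joint test and the limma tests were tried on simulated data, with allele columns drawn independently. The matDKO/CAST and interaction tests were not. Maternal and paternal reads of a library share their pool, which the library block uses. Tissues with the same replicate number shared no such source in the labels. Deviations of same-numbered libraries still correlated by 0.31 to 0.51 for H3K4me3, against -0.12 to 0.09 for H3K27me3 and 0.03 to 0.07 for H3K36me3. The main tissue tests were unpaired, also for H3K4me3.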

Additional observations from a re-analysis of the deposited data

Results flagged for a closer look

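The pooled maternal share of H3K27me3 in the noncoding cluster of wild-type ExE was 20.3% in B6/CAST replicate 2, from 64 reads, while the other 3 libraries lay at 15.1 to 15.3%, a gap that flagged it. At the larger of the peaks pooled there, the 95% Wilson interval of that library was 12.9 to 34.4%, which holds the shares of the other 3 libraries there. H3K27me3 over the body of Rian in ExE was 0.340 RPKM in B6/CAST replicate 2 and 0.379 to 0.384 in the other 3 wild-type libraries. Among 69 groups of 4 libraries tested in this way, 2 had such a library, and chance alone gives about 1 in 20. The same library gave both.

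The maternal bias of H3K36me3 over the noncoding cluster in ExE was lower in matDKO/CAST than in B6/CAST, with a log2 difference of -0.63. The H3K4me3 peak chr12:110250000-110253500 in epiblast, between genes before Dio3, had a bias that differed by -3.54 on the log2 scale between matDKO/CAST and CAST/B6 (edgeR adjusted p 3.07e-05). Its log2 ratio of maternal to paternal reads was 1.62 ± 0.49 in CAST/B6, against -1.58 ± 0.34 in B6/CAST and -1.96 ± 0.37 in matDKO/CAST, so the CAST allele had more reads in each cross, short of the threshold in CAST/B6 (adjusted p 0.119), and the difference between matDKO/CAST and B6/CAST, -0.35 ± 0.52, was not significant (adjusted p 1).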

How the results depend on the processing

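The count of 16 imprinted peaks was 13 with the DESeq2 Wald test, 15 at the stricter threshold or with 20 reads in each wild-type cross, and 17 to 19 with library totals, no read minimum, all crosses in 1 fit or the replicate block, which gave 19. Leaving out 1 library gave 14 to 17. The 20 peaks with a joint parent effect became 17 to 22 over all settings. The 15 retained peaks became 8 with the DESeq2 Wald test, 17 with the replicate block, and 10 to 16 without 1 library. The 1 peak that differed between matDKO/CAST and B6/CAST became 0 with the DESeq2 Wald test and 0 to 1 without 1 library. The 8 tissue calls of total signal became 1 under quantile normalization, 7 with the replicate number as a block, which ended the calls of Rian (H3K27me3 at the start and H3K36me3) and added that of Meg3 H3K36me3, 7 to 10 under the other settings, and 5 to 8 without 1 library. The difference of Dio3 H3K27me3 over the gene body was 0.10 under quantile normalization. The cause was not tested. The 0 calls of total signal in matDKO/CAST remained 0 under every setting. Regions with a maternal share above 50% in all wild-type libraries numbered 11, and 20 when a long peak was counted in each region it overlaps, since more regions then hold reads. The replicate block changed no other direction. Of the single peaks, genes and regions, 823 values kept direction and call, 75 lost and 19 gained a call, and 20 shares moved by more than their spread. Few reads limit the epiblast H3K27me3 peaks of the cluster, and 2 libraries per group limit every test.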
